A study of Mus musculus with 15 samples.

Results

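The 88 genes described here are the mouse cytochrome P450 genes read by 1 array probe set that names a single gene, out of 22180 genes measured in the same way. They were taken by symbol, as Cyp followed by a family number, subfamily letters and a gene number, and each gene is represented by its brightest probe set on average across the 15 arrays. Cyp51, Cyp24a1 and Cyp27b1 were not included. By family or role the genes fall into 3 of the CYP1 family, 48 of CYP2, 7 of CYP3, 15 of CYP4, 5 of steroid hormone synthesis, 6 of bile acid and cholesterol metabolism, 3 of retinoic acid breakdown, and Cyp20a1, which has no known substrate.

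Total RNA came from the aorta of mice of the inbred strain DBA/2NCrl, aged 8 weeks when the experiment began. For 5 days the mice were fed HPD (high phosphate, 20.2 g phosphorus in each kg of feed) or SCD (standard chow, 7.0 g). The arrays held 4 abdominal HPD samples, 4 abdominal SCD samples, 3 thoracic HPD samples and 4 thoracic SCD samples, labelled as biological replicates. The labels give neither the number of animals behind an array nor whether an animal gave both segments. With 3 or 4 arrays a group, precision is limited by their number.

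Cytochrome P450 enzymes are haem proteins that insert an oxygen atom into lipids, steroids, vitamins, drugs and other foreign compounds, with electrons passed on by cytochrome P450 reductase and cytochrome b5 in the endoplasmic reticulum or by ferredoxin in mitochondria. Families CYP1 to CYP3 are best known from the liver, where the nuclear receptors CAR and PXR and the aryl hydrocarbon receptor switch them on. In blood vessels, CYP2J and CYP2C enzymes turn arachidonic acid into epoxides that relax smooth muscle, CYP4 enzymes form the constrictor 20-HETE, and CYP1B1 acts on steroids, retinoids and fatty acids.

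Smooth muscle markers were present on every array, with a mean log2 intensity over 9 genes between 9.26 and 9.48 in thoracic HPD, 9.14 and 9.32 in thoracic SCD, 8.18 and 8.86 in abdominal HPD, and 8.28 and 8.89 in abdominal SCD arrays. Some arrays also carried RNA of other tissues. Alb, the serum albumin gene of hepatocytes, read 10.97 and 12.36 in abdominal HPD arrays 3 and 4 and 7.80 and 9.27 in thoracic SCD arrays 1 and 4, against 5.03 to 5.97 in the other 11. A T and NK cell score, the mean log2 intensity of 9 genes, lay more than 1 log2 unit above its median over all arrays in 5 abdominal arrays, HPD arrays 1, 2 and 4 and SCD arrays 2 and 4. In such bulk samples, fewer cells of a type and less RNA per cell cannot be told apart. The P450 calls are given also without the 4 arrays with high Alb, while marker and pathway genes are given with all arrays.

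After 5 days of HPD, the P450 genes that rose in both aortic segments were Cyp2b10, Cyp1b1, Cyp2d22 and Cyp4b1. In the abdominal aorta 6 of the 88 genes rose and 0 fell, against 1.95% of all genes that rose and 5.06% that fell (7.01% in either direction). These calls are limma's, at p under 0.05 after Benjamini-Hochberg adjustment across the 22180 genes. In the thoracic aorta 4 rose and 0 fell, where 1.39% of all genes rose and 1.08% fell (2.47% in either direction). Cyp2c68 and Cyp3a11 were the other abdominal rises. The median difference of the 88 genes, HPD minus SCD, was 0.23 on the log2 scale in the abdominal and -0.01 in the thoracic aorta, and that of all genes -0.01 in both.

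**Figure D1:**
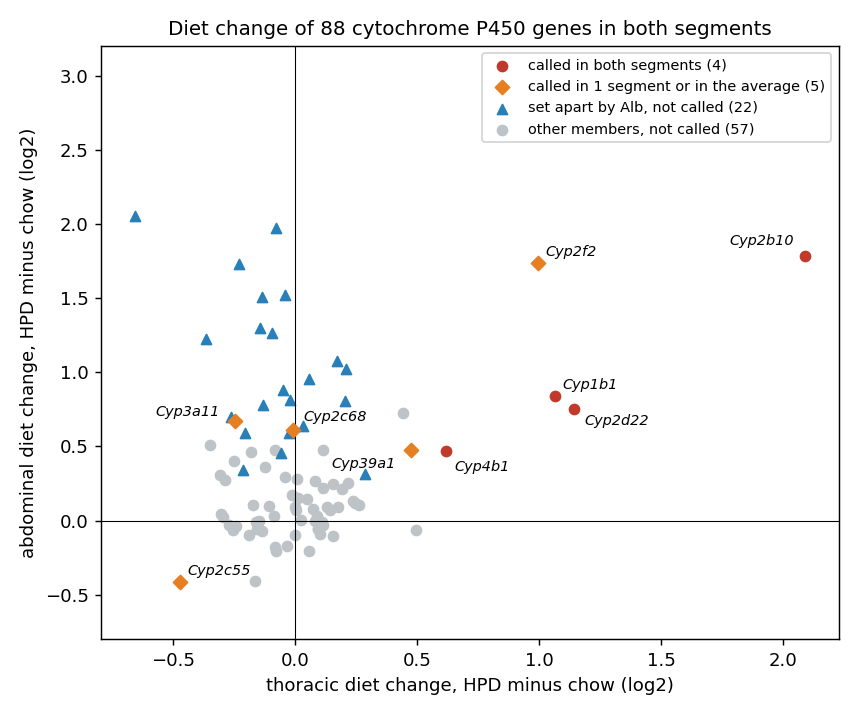
Each point is 1 of the 88 P450 genes, with its log2 difference between HPD and SCD in the thoracic aorta on the x axis and in the abdominal aorta on the y axis. The 4 genes that passed the test in both segments lie at the right, with Cyp2b10 at 2.09 and 1.79, while the 22 genes set apart by Alb (triangles) spread upwards along the abdominal axis only.

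Cyp2b10, the phenobarbital-inducible drug-metabolising P450 and the usual marker of CAR activity in mouse liver, had the largest change of the called genes. It read 7.06, 7.09, 8.34 and 8.23 in the abdominal HPD arrays, against 6.18, 5.71, 5.70 and 5.98 in the abdominal SCD arrays. Its thoracic values were 7.75, 8.59 and 8.40 under HPD and 6.25, 6.39, 6.46 and 5.54 under SCD. Every HPD array lay above every SCD array, in each segment and across both, and within the abdominal HPD group arrays 3 and 4, which are the ones with high Alb, stood above arrays 1 and 2. The rise was 3.45-fold in the abdominal aorta (log2 1.79, SE 0.298, limma adjusted p = 0.00164) and 4.26-fold in the thoracic aorta (log2 2.09, SE 0.322, adjusted p = 0.00338). Without the 4 arrays with high Alb it was 1.18 on the log2 scale in the abdominal aorta (adjusted p = 0.0117) and 1.82 in the thoracic aorta (adjusted p = 0.0134). The abdominal value then rests on HPD arrays 1 and 2.

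Cyp1b1, an extrahepatic enzyme that hydroxylates oestradiol and is under the control of the aryl hydrocarbon receptor, read 8.97, 9.12, 9.27 and 9.08 in abdominal HPD arrays and 8.10, 8.46, 8.00 and 8.52 in abdominal SCD arrays. In the thoracic aorta it read 8.96, 9.44 and 9.47 under HPD, against 8.15, 8.17, 8.35 and 8.23 under SCD. No HPD array reached down to the SCD values in either segment. Cyp1b1 rose 1.79-fold in the abdominal (log2 0.84, SE 0.129, limma adjusted p = 0.000898) and 2.1-fold in the thoracic aorta (log2 1.07, SE 0.139, adjusted p = 0.00133). Without the arrays with high Alb, which leaves 2 thoracic SCD arrays, the thoracic difference was 1.03 with an adjusted p of 0.0567, and the abdominal one 0.77 with 0.0327. Cyp1a1, the inducible member of the same family, averaged 5.05 ± 0.0953 in abdominal HPD arrays and 5.23 ± 0.0969 in abdominal SCD arrays (SD, n = 4 each), a difference of -0.18 that did not pass the test (limma adjusted p = 0.517).

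Cyp2d22, a drug-metabolising member of the CYP2D subfamily, read 8.97, 9.11, 9.34 and 9.06 in abdominal HPD arrays and 8.63, 8.38, 8.34 and 8.11 in abdominal SCD arrays. Its thoracic values were 9.45, 9.56 and 9.57 with HPD and 8.38, 8.56, 8.28 and 8.31 with SCD. The diet groups did not overlap in either segment, and the 3 thoracic HPD arrays were the highest of all 15. It rose 1.69-fold in the abdominal (log2 0.75, SE 0.104, limma adjusted p = 0.000425) and 2.21-fold in the thoracic aorta (log2 1.14, SE 0.113, adjusted p = 0.000335). The abdominal change minus the thoracic one was -0.39 (SE 0.154, adjusted p = 0.879), so the changes were not shown to differ between segments. Both held without the arrays with high Alb, at 0.68 (adjusted p = 0.0189) and 1.10 (adjusted p = 0.0162).

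Cyp4b1, an enzyme of lung and other tissues that hydroxylates fatty acids and activates some plant toxins, read 7.80, 7.81, 7.41 and 7.35 in abdominal HPD arrays and 7.24, 6.96, 7.17 and 7.14 in abdominal SCD arrays. In the thoracic aorta the values were 7.65, 7.81 and 7.41 under HPD, against 6.78, 7.09, 7.18 and 6.97 under SCD. The groups did not overlap, but the lowest HPD array stood only narrowly over the highest SCD array, 7.35 against 7.24 in the abdominal aorta. Here abdominal HPD arrays 1 and 2, without high Alb, were the high ones. Both had a high T and NK cell score (8.02 and 8.00), as did array 4 (7.54), the lowest of the group for Cyp4b1. The rise was 1.38-fold in the abdominal (log2 0.47, SE 0.125, limma adjusted p = 0.0352) and 1.53-fold in the thoracic aorta (log2 0.62, SE 0.135, adjusted p = 0.0259). Without the arrays with high Alb the abdominal difference was 0.68 (adjusted p = 0.0111) and the thoracic one 0.49, no longer past the threshold (adjusted p = 0.169). With replicate number as a block the thoracic difference was 0.59 (adjusted p = 0.0502). With only the 2 groups compared in the model, the abdominal difference was not called (adjusted p = 0.0758). The abdominal call was also lost without abdominal HPD array 1 or 2 or any 1 of the abdominal SCD arrays (0.39 to 0.51, adjusted p up to 0.117), and the thoracic one without thoracic HPD array 1 or 2 or SCD array 1 or 4 (0.53 to 0.61, adjusted p up to 0.126). Leaving out both arrays with high Scgb1a1, a gene of airway cells described below, also ended the thoracic call. They are thoracic HPD array 2, the highest thoracic array for Cyp4b1, and thoracic SCD array 3.

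**Figure D2:**
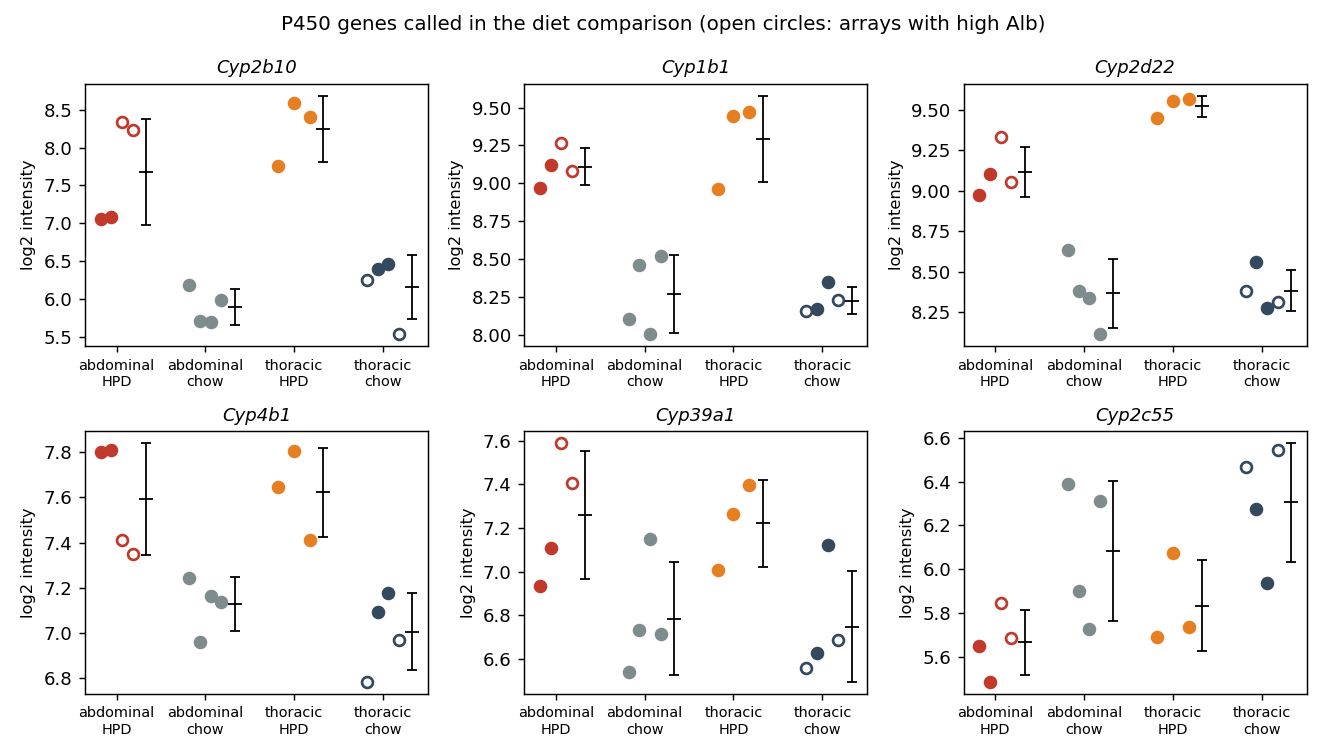
Log2 intensity of P450 genes that passed the test between diets, 1 point per array, with the group mean and SD beside the points and HPD left of chow (SCD) in each segment. Open circles are the 4 arrays with high Alb, and Cyp2b10, Cyp1b1, Cyp2d22 and Cyp4b1 show HPD arrays above chow arrays in both segments.

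The 250 bases before the start site of these genes, in the direction of transcription, are shown for Cyp1b1, Cyp2b10 and Cyp4b1, the genes called in both segments that the RefSeq promoter table of build GRCm38.p6 lists. Cyp1b1 lies at chr17:79715062-79715311 on the minus strand, Cyp2b10 at chr7:25897408-25897657 on the plus strand and Cyp4b1 at chr4:115647722-115647971 on the minus strand. Capitals mark GCGTG or its reverse complement CACGC, the core bound by the aryl hydrocarbon receptor, in Cyp1b1 and Cyp2b10, and TGTTCT, the reverse complement of AGAACA, a short element bound by the glucocorticoid receptor, in Cyp4b1.
Cyp1b1: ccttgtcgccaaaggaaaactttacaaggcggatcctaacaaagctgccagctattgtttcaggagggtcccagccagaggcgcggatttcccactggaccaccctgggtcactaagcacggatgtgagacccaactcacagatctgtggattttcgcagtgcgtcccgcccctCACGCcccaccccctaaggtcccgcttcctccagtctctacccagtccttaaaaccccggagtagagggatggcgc
Cyp2b10: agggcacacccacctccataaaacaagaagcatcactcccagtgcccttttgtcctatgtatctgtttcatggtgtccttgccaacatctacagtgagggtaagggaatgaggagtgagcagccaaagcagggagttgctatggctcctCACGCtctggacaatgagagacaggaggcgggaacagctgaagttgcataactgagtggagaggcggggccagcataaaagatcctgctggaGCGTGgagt
Cyp4b1: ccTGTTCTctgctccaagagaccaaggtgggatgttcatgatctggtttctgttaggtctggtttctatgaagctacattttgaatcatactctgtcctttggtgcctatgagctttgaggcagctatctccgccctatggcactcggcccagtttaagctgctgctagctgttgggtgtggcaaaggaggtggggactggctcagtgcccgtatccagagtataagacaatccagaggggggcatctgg
The Cyp1b1 match begins 76 bases before the start, the Cyp2b10 matches 101 and 9 bases before it, and the Cyp4b1 match 248 bases before it. Both strands were searched, and none of the printed matches overlaps another. GCGTG is common, at 28.2% of all 27025 promoters of the table and 21.7% of the 69 P450 genes listed there, and AGAACA stood in 16.2% of all promoters and 20.3% of the P450 ones. A match describes these letters and is not a binding site.

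Marker genes of other cells moved beside these rises. Of all genes 1.95% rose and 5.06% fell in the abdominal aorta, and 1.39% rose and 1.08% fell in the thoracic aorta. Of 12 pan-adipocyte genes 5 fell in the abdominal and 1 in the thoracic aorta (limma). Their mean lay at 9.02 to 9.35 in abdominal HPD arrays, against 9.59 to 9.99 in abdominal SCD arrays, and overlapped in the thoracic aorta, at 9.41 to 9.81 with HPD and 9.65 to 9.97 with SCD. Of 10 brown adipocyte genes 9 fell in the abdominal and 5 in the thoracic aorta (limma), and their median differences were -1.36 and -0.87 on the log2 scale. The mean of these genes lay at 6.94 to 7.44 in abdominal HPD arrays, against 8.40 to 8.79 in abdominal SCD arrays, and at 7.70 to 8.23 in thoracic HPD arrays, against 8.79 to 9.01 in thoracic SCD arrays. The diet groups do not overlap in the brown adipocyte mean, so the diet and that mean cannot be told apart. With the brown adipocyte and pan-adipocyte means as covariates, 0 of all 22180 genes were called between diets in any diet contrast. The abdominal estimate for Cyp2b10 was then 2.57 (adjusted p = 0.604), that for Cyp2d22 1.44 (adjusted p = 0.406), that for Cyp4b1 0.53 (adjusted p = 0.857) and that for Cyp1b1 0.12 (adjusted p = 0.977). Of 7 macrophage genes 2 rose in the abdominal and 1 in the thoracic aorta and 0 fell, at group means of 8.24 in abdominal HPD and 7.86 in abdominal SCD arrays. Of 7 adventitial fibroblast genes 5 fell in the abdominal and 1 in the thoracic aorta. Their mean lay at 8.46 to 8.62 in abdominal HPD arrays, against 9.12 to 9.39 in abdominal SCD arrays. Of 8 endothelial genes 1 rose and 3 fell in the abdominal aorta, and 1 rose and 2 fell in the thoracic aorta. The part of macrophages, fibroblasts and endothelium in the P450 changes was not tested.

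In the average of the 2 segments, which rests on the same arrays, 6 of the 88 genes rose and 1 fell, against 4.53% and 6.18% of all genes (10.7% in either direction). Besides the 4 genes above, Cyp39a1 and Cyp2f2 were higher and Cyp2c55 lower, each called in the average and in neither segment alone.

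Cyp39a1, the oxysterol 7-alpha-hydroxylase that acts on 24-hydroxycholesterol, read 6.94, 7.11, 7.59 and 7.41 in abdominal HPD and 6.54, 6.73, 7.15 and 6.72 in abdominal SCD arrays. Thoracic values were 7.01, 7.26 and 7.40 with HPD, against 6.56, 6.63, 7.12 and 6.69 with SCD. The diet groups overlapped in both segments through SCD array 3, the highest of its group each time. The average rise was 1.39-fold (log2 0.47, SE 0.121, limma adjusted p = 0.0188), and without the arrays with high Alb it was 0.29 (adjusted p = 0.249). It was 0.43 and not called without thoracic HPD array 3 (adjusted p = 0.0564).

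Cyp2f2, which activates naphthalene in the club cells of the airway, varied most among the called genes. It read 6.53, 6.84, 8.11 and 8.11 in abdominal HPD arrays, against 5.67, 6.03, 5.59 and 5.35 in abdominal SCD arrays, and 6.48, 7.88 and 8.63 in thoracic HPD arrays, against 6.08, 6.61, 8.30 and 5.68 in thoracic SCD arrays. All abdominal HPD arrays lay above all abdominal SCD arrays, with the 2 arrays of high Alb highest. In the thoracic aorta the groups overlapped, since SCD array 3 read 8.30. The average rise was 2.58-fold (log2 1.37, SE 0.399, limma adjusted p = 0.0391), and without the arrays with high Alb 0.62 on the log2 scale (adjusted p = 0.42). Leaving out 1 array ended the call in 10 of 15 cases, all but abdominal HPD arrays 1 and 2, abdominal SCD array 2, thoracic HPD array 1 and thoracic SCD array 3 (1.12 to 1.37). A second probe set for Cyp2f2 gave an average difference of 0.82.

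Thoracic SCD array 3 also held the highest value of Scgb1a1, the secretoglobin of club cells, at 11.74, and thoracic HPD array 2 the second, at 8.03, where the other 13 arrays read 4.39 to 5.64. Scgb1a1 was singled out after its values were seen. The mean of 7 lung epithelium genes was 6.65 and 5.29 in these 2 arrays. Without them the average difference of Cyp2f2 was 1.58 (adjusted p = 0.0154). Thoracic HPD array 3 had the highest Cyp2f2 value of all, 8.63, with Scgb1a1 at 5.17.

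**Figure D3:**
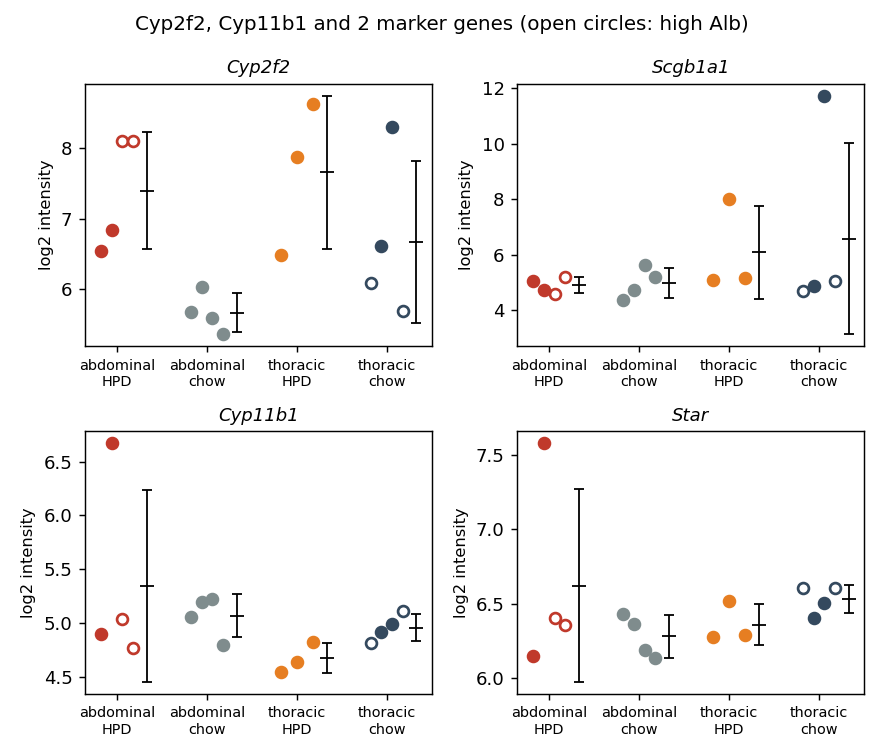
Log2 intensity of Cyp2f2 beside Scgb1a1, and of Cyp11b1 beside Star, 1 point per array with group means and SD, HPD left of chow (SCD). Thoracic chow array 3 is high in Cyp2f2 and Scgb1a1, and abdominal HPD array 2 is high in Cyp11b1 and Star.

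Cyp2c55, a CYP2C enzyme known from the mouse colon that oxidises arachidonic acid, read 5.65, 5.49, 5.85 and 5.69 in abdominal HPD arrays and 6.39, 5.90, 5.73 and 6.31 in abdominal SCD arrays. The thoracic values were 5.69, 6.07 and 5.74 under HPD and 6.47, 6.28, 5.94 and 6.54 under SCD. In each segment SCD array 3 lay among the HPD values. The average fall was 1.36-fold (log2 -0.44, SE 0.118, limma adjusted p = 0.0239). The other probe set of the gene gave -0.02 (unadjusted p = 0.907), and the mean of both probe sets was not called. The average was -0.39 without the arrays with high Alb (adjusted p = 0.136). The call was also lost without abdominal HPD array 2, abdominal SCD array 1, thoracic HPD array 1 or 3, or thoracic SCD array 1 or 4 (-0.42 to -0.39, adjusted p up to 0.0659).

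The abdominal rises of Cyp3a11 and Cyp2c68, on the probe sets that name a single gene, were small and at low intensity. Cyp3a11, a main drug-metabolising P450 of mouse liver and a PXR target, read 4.19, 4.36, 4.83 and 5.13 in abdominal HPD arrays and 3.87, 3.76, 3.85 and 4.34 in abdominal SCD arrays, a rise of 1.59-fold (SE 0.174 on the log2 scale, limma adjusted p = 0.0286). Cyp2c68 read 3.15, 3.35, 3.35 and 4.22, against 2.76, 3.04, 2.76 and 3.06, or 1.53-fold (SE 0.175, adjusted p = 0.0476). In both, abdominal HPD array 4, the one with the highest Alb, was highest. Without the arrays with high Alb the differences were 0.32 (adjusted p = 0.262) and 0.35 (adjusted p = 0.146). Without abdominal HPD array 4 alone they were 0.50 (adjusted p = 0.084) and 0.38 (adjusted p = 0.0556). Leaving out 1 array ended the Cyp2c68 call in 12 of 15 cases and the Cyp3a11 call in 5, abdominal HPD array 3 or 4 or abdominal SCD array 1, 2 or 3. Both genes lay below the 30th percentile of mean intensity and belong to clusters of near-identical genes whose probes can be shared, so these calls are uncertain. Brighter probe sets that name several genes were not tested. That of Cyp2c67 and Cyp2c68 read 4.28 to 7.78 in abdominal HPD and 4.16 to 4.53 in abdominal SCD arrays, a difference of 1.17. A probe set naming Cyp3a11 with other CYP3A genes read 5.06 to 9.95, against 5.08 to 5.42, a difference of 1.49. A further such probe set differed by 1.42. The diet groups overlapped in each.

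No P450 gene was shown to differ between segments in its diet change. Of the abdominal minus thoracic differences 0 of 88 were called, as were 0 of all genes (0% in either direction), while 8 of the 88 and 1217 of all genes had an unadjusted p under 0.05 (limma). Without the 4 arrays with high Alb, 5 of the 88 genes were called in the abdominal diet change (4 higher and 1 lower, 4.68% of all genes) and 2 in the thoracic one (0.289%). The average then held 5 (4 higher and 1 lower, 6.23% of all genes).

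The abdominal and average calls gained there included Cyp2u1, a hydroxylase of long-chain fatty acids, which was lower. It read 5.70, 5.88, 6.05 and 6.15 in abdominal HPD and 6.45, 6.39, 6.51 and 6.07 in abdominal SCD arrays, with HPD array 4 above SCD array 4 as the one overlap. The abdominal difference was -0.41 over all arrays (adjusted p = 0.0555) and -0.56 without the arrays with high Alb, where it passed the test.

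The genes set apart by Alb were 22 of the 88. They are those whose highest array was one of the 4 with high Alb and stood more than 1 log2 unit over the highest of the other 11. They comprise 15 CYP2 genes, 4 CYP3 genes, Cyp1a2, Cyp7a1 and Cyp17a1. The highest array was abdominal HPD array 4 in 21 of them and abdominal HPD array 3 in Cyp2c40. These values chose the genes and are given as a description.

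Cyp2c70, which forms muricholic acids in rodents, read 5.01, 4.41, 7.42 and 9.95 in abdominal HPD arrays, against 4.54, 4.79, 4.85 and 4.71 in abdominal SCD arrays. In the thoracic aorta it read 4.94, 4.98 and 4.99 with HPD and 5.11, 4.85, 5.04 and 5.20 with SCD. Array 4 stood 4.91 log2 units over the highest array without high Alb, and array 3 came second.

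Cyp2a4, a steroid 15-alpha-hydroxylase of mouse liver, read 2.60, 2.69, 5.45 and 8.72 in abdominal HPD arrays and 3.10, 2.72, 2.65 and 2.79 in abdominal SCD arrays. Cyp7a1, the rate-limiting enzyme of bile acid synthesis, read 3.43, 3.74, 5.22 and 7.43 and 3.39, 3.32, 3.47 and 3.61 in the same groups. In both genes abdominal HPD arrays 1 and 2 lay near the SCD arrays, and arrays 3 and 4 above them. Thoracic SCD arrays 1 and 4, with the lower Alb values, showed little of this, with Cyp2a4 at 3.50 and 4.17 and Cyp7a1 at 3.92 and 4.03.

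Cyp17a1, the 17-alpha-hydroxylase of steroid synthesis, read 7.46 in abdominal HPD array 4, and Cyp1a2, the constitutive CYP1A enzyme of hepatocytes, read 6.59. Across the 22 genes, the median excess over the median of the arrays without high Alb was 3.04 log2 units in abdominal HPD array 4 and 0.88 in array 3. It was 0.25 in thoracic SCD array 4 and 0.15 in thoracic SCD array 1, against -0.14 to 0.15 in the other 11 arrays. The mean of 14 hepatocyte genes had the same order among these 4 arrays, at 10.3, 8.20, 6.37 and 5.70, with 5.16 to 5.42 in the others. Array 3 of abdominal HPD lay above every array without high Alb in 18 of the 22 genes, thoracic SCD array 4 in 9 and thoracic SCD array 1 in 5.

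The gene just inside the limit was Cyp2c40, 1.02 over the highest other array, and just outside lay Cyp4f15 at 0.95, Cyp3a59 at 0.93, Cyp2d9 at 0.90 and Cyp2c68 at 0.86. With all arrays, 0 of the 22 genes were called in any contrast, and 13 had an unadjusted p under 0.05 in at least 1 (limma). The same values enter the median difference of the 22 genes between diets in the abdominal aorta, 0.92, against 0.09 in the other 66 genes. In the thoracic aorta the medians were -0.07 and 0.01. Of the CYP2B subfamily, Cyp2b9 and Cyp2b13 were among the 22 genes. They read 4.89, 4.92, 6.44 and 8.65 and 3.75, 3.58, 4.42 and 6.13 in abdominal HPD arrays. Cyp2b10 was not, since thoracic HPD array 2, with little Alb, read 8.59.

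**Figure D4:**
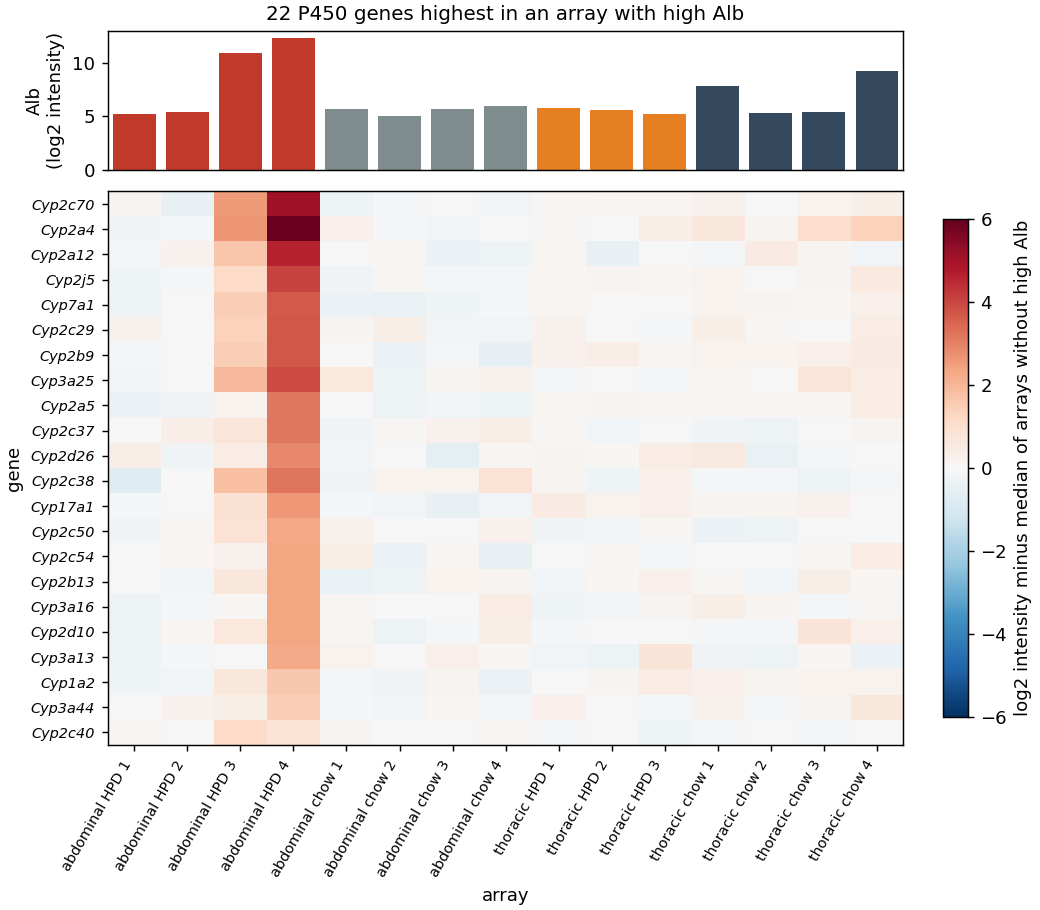
The 22 P450 genes set apart by Alb across the 15 arrays, as log2 units above or below each gene's median in the arrays without high Alb, beside Alb itself. Abdominal HPD array 4 is raised in all 22 and array 3 in most, and the 2 thoracic chow (SCD) arrays with high Alb are raised little.

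The promoter of Cyp2a4, at chr7:26306942-26307191 on the plus strand of GRCm38.p6, is shown for these genes. Capitals mark GTTAAT, part of the element bound by the hepatocyte factor HNF1, and TATAAA, the TATA box.
Cyp2a4: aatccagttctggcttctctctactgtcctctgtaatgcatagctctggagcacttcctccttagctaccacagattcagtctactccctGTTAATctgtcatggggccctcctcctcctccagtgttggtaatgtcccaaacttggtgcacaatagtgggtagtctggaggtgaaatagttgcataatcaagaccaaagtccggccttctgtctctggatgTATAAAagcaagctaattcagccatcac
The matches begin 160 and 28 bases before the start. TATAAA stood in 63.2% of the 19 promoters listed for the 22 genes, in 24% of the 50 listed for the other P450 genes and in 13% of all promoters. GTTAAT stood in 21.1%, 6% and 6.52% of these, and AGGTCA, the core element of many nuclear receptors, in 36.8%, 18% and 13.8%. GCGTG was in 0 of the 19 and in 30% of the 50. These shares are descriptions of the windows and were not tested.

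Between segments, 5 P450 genes differed on at least 1 diet. Cyp2j9, Cyp2j12 and Cyp2r1 were lower in the thoracic aorta, and Cyp2d22 and Cyp2d40 were higher. Under HPD 1 of the 88 genes was higher and 3 were lower in thoracic than in abdominal arrays, against 7.57% and 6.25% of all genes (13.8% in either direction). Under SCD 1 was higher and 1 lower, against 1.76% and 3.02% (4.78% in either direction). Both shares of P450 genes, 4.55% and 2.27%, lie below those of all genes. The 2 comparisons share no array, and Cyp2j9 was called in both.

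Cyp2j9, an epoxygenase of arachidonic and linoleic acid best known from mouse brain, read 6.30, 6.67 and 6.57 in thoracic HPD arrays, against 7.10, 7.27, 7.86 and 7.08 in abdominal HPD arrays. Under SCD it read 5.87, 5.99, 6.41 and 5.79 in thoracic arrays and 7.20, 7.09, 7.68 and 7.59 in abdominal arrays. Every thoracic array lay below every abdominal one. It was 1.76-fold lower in the thoracic aorta under HPD (log2 -0.82, SE 0.201, limma adjusted p = 0.0153) and 2.59-fold lower under SCD (log2 -1.37, SE 0.186, adjusted p = 0.000644). The SCD difference passed the test in all 27 alternatives tried, between -1.60 and -1.19. Leaving out the arrays with high Alb gave -0.67 under HPD (adjusted p = 0.0458) and -1.19 under SCD (adjusted p = 0.021). The HPD difference was -0.71 and not called without thoracic HPD array 1 (adjusted p = 0.0725). The difference between thoracic diets, 0.50, did not pass it (adjusted p = 0.267).

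Cyp2j12, from the same gene cluster on chromosome 4, read 5.10, 5.62 and 5.09 in thoracic HPD arrays, against 6.59, 6.91, 6.31 and 6.35 in abdominal HPD arrays. With SCD the thoracic values were 5.26, 4.75, 4.59 and 4.69 and the abdominal ones 5.47, 5.16, 6.93 and 5.71, among which abdominal array 3 stood apart. The groups did not overlap under HPD, and under SCD overlapped at one array. It was 2.41-fold lower in the thoracic aorta under HPD (log2 -1.27, SE 0.318, limma adjusted p = 0.0162), and -0.99 on the log2 scale under SCD, which did not pass the test (adjusted p = 0.069). Leaving out the arrays with high Alb gave -1.48 under HPD (adjusted p = 0.0347). The HPD call was lost without abdominal HPD array 2 or thoracic HPD array 1 or 3 (-1.19 to -1.15, adjusted p up to 0.0663).

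The cluster's other measured genes showed no such call. Cyp2j6, an epoxygenase found in many mouse tissues, averaged 7.63 ± 0.0405 in thoracic HPD (SD, n = 3) and 7.80 ± 0.234 in abdominal HPD arrays (SD, n = 4), and 7.64 ± 0.196 in thoracic SCD and 7.89 ± 0.276 in abdominal SCD arrays (SD, n = 4 each). Its segment differences of -0.16 and -0.26 had limma adjusted p-values of 0.524 and 0.332. Those of Cyp2j13, Cyp2j8 and Cyp2j11 had adjusted p-values between 0.195 and 0.963. Cyp2j5 was among the genes set apart by Alb.

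**Figure D5:**
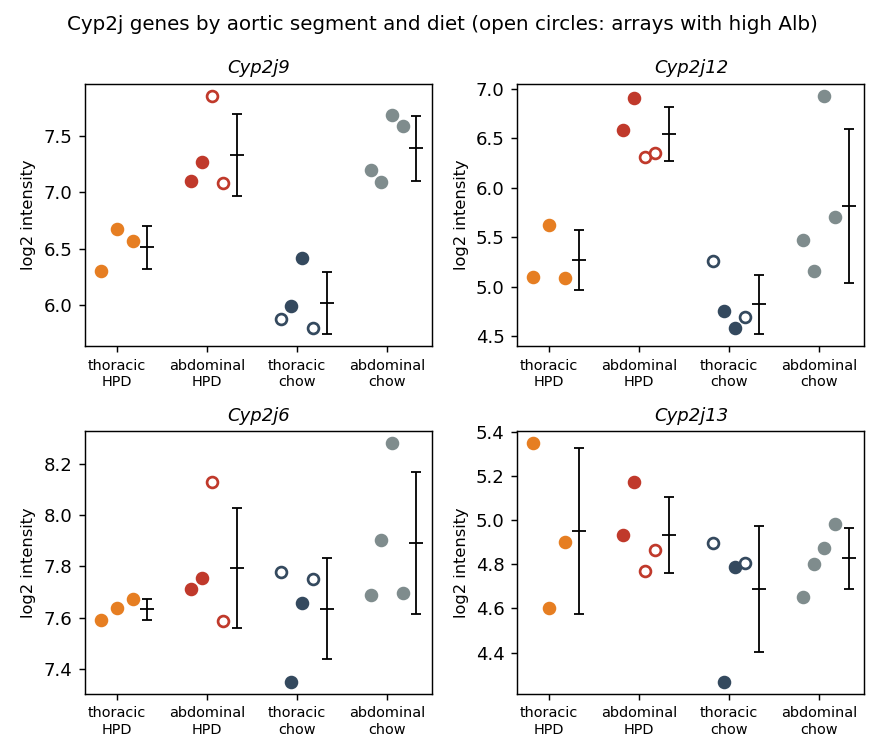
Log2 intensity of 4 genes of the CYP2J cluster, 1 point per array with group means and SD, thoracic left of abdominal within each diet. Cyp2j9 lies lower in every thoracic than in any abdominal array and Cyp2j12 does so under HPD, while Cyp2j12 under chow (SCD), Cyp2j6 and Cyp2j13 overlap.

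The Cyp2j9 promoter, at chr4:96591486-96591735 on the minus strand of GRCm38.p6, is shown as that of the P450 gene with a segment difference on both diets, with GCGTG in capitals, 171 bases before the start.
Cyp2j9: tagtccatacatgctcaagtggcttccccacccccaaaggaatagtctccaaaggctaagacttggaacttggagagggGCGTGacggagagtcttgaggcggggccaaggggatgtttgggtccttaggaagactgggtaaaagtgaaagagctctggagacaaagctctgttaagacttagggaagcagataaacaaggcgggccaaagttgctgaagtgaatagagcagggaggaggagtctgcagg

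The other calls between segments were smaller. Cyp2r1, the liver enzyme of vitamin D 25-hydroxylation, read 4.20, 3.99 and 4.02 in thoracic HPD arrays, against 4.72, 4.36, 4.80 and 5.13 in abdominal HPD arrays. All thoracic values lay below the abdominal ones. It was 1.61-fold lower in the thoracic aorta (log2 -0.69, SE 0.207, limma adjusted p = 0.0388), but -0.47 without the arrays with high Alb (adjusted p = 0.244). Leaving out 1 array ended this call in 7 of 15 cases, among them each thoracic HPD array and abdominal HPD array 1, 3 or 4. With replicate number as a block it was -0.58 and not called (adjusted p = 0.0578). The call was also lost without the arrays with high Scgb1a1. Like Cyp3a11 and Cyp2c68, Cyp2r1 lay below the 30th percentile of mean intensity. Cyp2d22 was 1.33-fold higher in thoracic than in abdominal HPD arrays (log2 0.41, SE 0.113, adjusted p = 0.027), with the arrays given above, which do not overlap. It was 0.48 without the arrays with high Alb (adjusted p = 0.0436). That call was lost without any 1 of the thoracic HPD arrays or abdominal HPD array 1, 2 or 4 (0.36 to 0.44, adjusted p up to 0.0847). It was also lost with replicate number as a block (0.36, adjusted p = 0.057) and without the arrays with high Scgb1a1 (0.39, adjusted p = 0.0886).

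Cyp2d40, another CYP2D member, read 6.63, 6.48, 6.66 and 6.38 in thoracic SCD arrays and 6.14, 5.88, 6.41 and 5.83 in abdominal SCD arrays, overlapping at abdominal array 3. It was 1.39-fold higher in the thoracic aorta (log2 0.47, SE 0.116, limma adjusted p = 0.0297). Without the arrays with high Alb the difference was 0.51 and not called (adjusted p = 0.154). The call was also lost without abdominal SCD array 2 or 4 or thoracic SCD array 1, 2 or 3 (0.39 to 0.49, adjusted p up to 0.112).

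Without the arrays with high Alb, 7 of the 88 genes were called between segments under HPD (5 higher and 2 lower, 13.3% of all genes) and 1 under SCD (0.875%). Cyp2b10 was then 1.18 log2 units higher in thoracic than in abdominal HPD arrays (adjusted p = 0.00789). With all arrays its difference was 0.57 (adjusted p = 0.264).

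Tissue markers differed between segments beside these genes. Under HPD all 9 smooth muscle genes and all 7 cardiac muscle genes were called higher in thoracic arrays, and 7 of 8 chromaffin and sympathetic neuron genes and 7 of 9 T and NK cell genes lower. Also under HPD, 6 of 10 brown adipocyte, 5 of 12 pan-adipocyte, 4 of 7 adventitial fibroblast and 4 of 5 mesothelium genes were higher and 4 of 6 B cell and lymph node genes lower. Of all genes 7.57% were higher and 6.25% lower under HPD, and 1.76% and 3.02% under SCD. Under SCD the first 4 counts were 5 of 9, 6 of 7, 6 of 8 and 0 of 9 (3 of 9 T and NK cell genes at an unadjusted p under 0.05). The mean of the chromaffin and sympathetic genes was 5.92 in thoracic HPD, against 8.46 in abdominal HPD arrays, and 5.60 in thoracic SCD, against 8.16 in abdominal SCD arrays. With the adipocyte means as covariates the HPD differences of Cyp2j9 and Cyp2j12 were -1.04 (adjusted p = 0.334) and -1.29 (adjusted p = 0.533), neither of them called. The part of the other cell types in these differences was not tested.

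Among P450 genes of hormone synthesis 0 of 5 were called in any contrast, and 1 had an unadjusted p under 0.05 in at least 1 (limma). In single contrasts 0% to 13.8% of all genes were called, so counts in such small sets say little about a role. Cyp11b1, the 11-beta-hydroxylase that makes corticosterone in the adrenal cortex, read 4.90, 6.67, 5.04 and 4.77 in abdominal HPD arrays, against 5.06, 5.20, 5.23 and 4.80 in abdominal SCD arrays. Only abdominal HPD array 2 was high, and the genes set beside it here were picked after their values were seen. The same array had the highest Star, the cholesterol carrier of steroid-making cells (7.58, against 6.14 to 6.61 elsewhere), and the highest Hsd3b1, a steroid dehydrogenase (5.40, against 3.18 to 4.07). The mean of 9 adrenal cortex genes was 6.18 in it, the highest of its group, where abdominal HPD arrays 1, 3 and 4 read 5.67, 5.85 and 5.79. It lay within the range of 5.67 to 6.22 over all arrays. Cyp11a1, Cyp11b2 and Cyp21a1 read 5.33, 4.18 and 4.35 in abdominal HPD array 2. The part of adrenal tissue in this array was not tested further.

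Of the P450 genes of sterol metabolism, 1 of 6 was called between diets, Cyp39a1 in the average, where 10.7% of all genes were called. Cyp27a1, the mitochondrial sterol 27-hydroxylase, averaged 7.87 ± 0.197 in abdominal HPD and 7.62 ± 0.287 in abdominal SCD arrays (SD, n = 4 each), with an adjusted p of 0.337 (limma). Cyp7b1, the oxysterol 7-alpha-hydroxylase of extrahepatic tissue, averaged 5.97 ± 0.196 and 5.88 ± 0.0504 in the same groups (adjusted p = 0.665). The retinoic acid hydroxylases Cyp26a1, Cyp26b1 and Cyp26c1 gave 0 of 3 calls, beside 0% to 13.8% of all genes in single contrasts. Of the 3 genes 2 had an unadjusted p under 0.05 in at least 1 contrast (limma). Cyp26b1 averaged 6.11 ± 0.101 in abdominal HPD and 6.16 ± 0.189 in abdominal SCD arrays.

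Among the 75 genes called in none of the contrasts was Cyp2e1, the ethanol-inducible P450. It read 11.69, 11.62, 11.81 and 11.84 in abdominal HPD and 11.54, 11.86, 11.68 and 11.33 in abdominal SCD arrays, and 11.65, 11.73 and 11.81 in thoracic HPD and 11.45, 11.52, 11.57 and 11.44 in thoracic SCD arrays. The thoracic diet groups did not overlap, but the difference of 0.24 did not pass the test (SE 0.0966, limma adjusted p = 0.275), nor did the average of 0.19 (adjusted p = 0.0928). Cyp20a1 had an average difference of 0.18 (adjusted p = 0.0649). Of 15 CYP4 genes Cyp4b1 was the only one called in any contrast, beside 0% to 13.8% of all genes in single contrasts. Cyp4v3, a fatty acid omega-hydroxylase, averaged 8.36 ± 0.0876 in abdominal HPD and 8.42 ± 0.0943 in abdominal SCD arrays. Cyp4a14, a target of PPAR-alpha in liver, averaged 4.62 ± 0.159 and 4.45 ± 0.242 (SD, n = 4 each). Of the 88 genes 34 lay above the 30th percentile of mean intensity over all genes and 19 above the median, so most were dim.

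Among electron donors and haem enzymes linked to the P450 proteins, the first list holds microsomal partners, and also Hmox1 and the mitochondrial Cyb5b. Those 2 genes were its only calls in the abdominal diet change. Of its 8 measured genes, 1 rose, 1 fell and 6 were not called in the abdominal aorta, where 7.01% of all genes were called. In the thoracic aorta, where 2.47% were, 0 rose, 1 fell and 7 were not called. The list medians were -0.13 and -0.01, beside -0.01 for all genes. Cyb5b, the outer mitochondrial cytochrome b5, read 7.58, 7.39, 7.51 and 7.52 in abdominal HPD arrays, against 8.48, 8.11, 8.12 and 8.16 in abdominal SCD arrays, without overlap. It fell by 0.72 on the log2 scale there (SE 0.121, limma adjusted p = 0.00183) and by 0.54 in the thoracic aorta (adjusted p = 0.0437). Hmox1, which degrades haem, rose by 0.75 in the abdominal aorta (adjusted p = 0.0415). Fdx1, the ferredoxin that feeds mitochondrial P450 enzymes and the only gene measured of its list, fell by 0.37 (adjusted p = 0.0206). Alas1, the first enzyme of haem synthesis and a gene of the CAR and PXR battery, fell by 0.87 (adjusted p = 0.0261).

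Of 16 measured receptors that control P450 genes, 0 rose and 2 fell in the abdominal aorta, where 7.01% of all genes were called, and 0 rose and 1 fell in the thoracic aorta, where 2.47% were. The median log2 differences of the list were 0.09 and 0.01. Nr3c1, the glucocorticoid receptor, fell by 0.32 in the abdominal (SE 0.0831, limma adjusted p = 0.0298) and by 0.37 in the thoracic aorta (SE 0.0898, adjusted p = 0.0445), and Ppara by 1.00 in the abdominal aorta (adjusted p = 0.0243). Nr1i3, the receptor CAR, and Ahr were looked at after their values were seen, for their link to Cyp2b10 and Cyp1b1. The abdominal difference of Nr1i3 was 0.33 (adjusted p = 0.286), with its highest value, 6.25, in abdominal HPD array 4. That of Ahr was 0.09 (adjusted p = 0.745), and Ahr was lower in thoracic than in abdominal arrays, by 0.65 under HPD (adjusted p = 0.00492) and by 0.71 under SCD (adjusted p = 0.00306).

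Of 13 other CAR and PXR genes 1 rose and 2 fell in the abdominal aorta, where 7.01% of all genes were called. In the thoracic aorta, where 2.47% were, 1 rose and 0 fell. At an unadjusted p under 0.05 there were 10 of the 13 in the abdominal aorta and 6 in the thoracic aorta, beside 4443 and 3051 of all 22180 genes (limma). These counts do not separate rises from falls. The median log2 differences of the list were 0.30 and 0.07, against -0.01 for all genes in both segments. The counts and medians of the list include the arrays with high Alb, whose part in them was not tested. Gadd45b, a stress-response gene, rose by 0.79 in the abdominal aorta (limma adjusted p = 0.0119), Papss2, which makes the sulfate donor PAPS, by 0.49 in the thoracic aorta (adjusted p = 0.0186), and Aldh1a7, an aldehyde dehydrogenase, fell by 1.44 in the abdominal aorta (adjusted p = 0.00267). Of 6 other genes of the aryl hydrocarbon receptor battery 0 were called in any diet contrast, and 2 had an unadjusted p under 0.05 in at least 1 (limma). Among them Tiparp, its repressor, had an abdominal difference of -0.19 (unadjusted p = 0.175, adjusted p = 0.477). Of 8 PPAR-alpha targets 0 rose and 1, Pdk4, fell in the abdominal aorta, by 0.74 (adjusted p = 0.023).

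Enzymes that share substrates with the vascular P450 enzymes differed mostly between segments. Of 9 other eicosanoid genes 7 were higher and 0 lower in thoracic than in abdominal HPD arrays, against 7.57% and 6.25% of all genes. Under SCD 3 were higher and 0 lower, against 1.76% and 3.02%. All 9 smooth muscle genes were also higher in thoracic HPD arrays, and the part of smooth muscle in these differences was not tested. Ptgis, prostacyclin synthase, read 8.65, 8.56 and 9.06 in thoracic HPD arrays, against 7.01, 7.40, 8.13 and 7.43 in abdominal HPD arrays, a 2.41-fold difference (log2 1.27, SE 0.229, limma adjusted p = 0.00244), and was 1.88-fold higher under SCD (adjusted p = 0.0221). Pla2g4a, the phospholipase that frees arachidonic acid, was 1.5-fold higher under HPD (adjusted p = 0.00311) and 1.49-fold higher under SCD (adjusted p = 0.00378). Between diets 0 of the 9 eicosanoid genes rose and 1 fell in the abdominal aorta, against 1.95% and 5.06% of all genes.

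That gene was Ephx2, the soluble epoxide hydrolase that breaks down the epoxides made by CYP2J and CYP2C enzymes. It averaged 8.78 ± 0.187 in abdominal HPD arrays and 9.67 ± 0.317 in abdominal SCD arrays (SD, n = 4 each). All HPD values lay below all SCD values, the highest of HPD at 9.05 and the lowest of SCD at 9.24. It fell by 0.89 (SE 0.157, limma adjusted p = 0.00259), and the thoracic difference of -0.30 did not pass the test (adjusted p = 0.485).

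Of 11 other retinoid genes 0 rose and 2 fell in the abdominal aorta, where 1.95% of all genes rose and 5.06% fell. In the thoracic aorta 0 rose and 1 fell, where 1.39% of all genes rose and 1.08% fell. Dhrs9, a retinol dehydrogenase, fell by 1.83 in the abdominal (limma adjusted p = 0.000407) and by 1.41 in the thoracic aorta (adjusted p = 0.0139). Dhrs3, a retinal reductase, fell by 0.64 in the abdominal aorta (adjusted p = 0.000436). Of 8 other bile acid and oxysterol genes 2 rose in the abdominal and 1 in the thoracic aorta, and 0 fell, beside the same shares of all genes. These counts include the arrays with high Alb. Abca1, the cholesterol exporter, rose by 0.51 in the abdominal (adjusted p = 0.0042) and by 0.56 in the thoracic aorta (adjusted p = 0.0115), and Ch25h, cholesterol 25-hydroxylase, by 0.74 in the abdominal aorta (adjusted p = 0.0471). Of 7 other steroid synthesis genes 0 were called in any contrast, beside 0% to 13.8% of all genes in single contrasts. Of the 7 genes 3 had an unadjusted p under 0.05 in at least 1 contrast (limma).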

How the data were processed

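The deposited table holds 1 value per probe set and array. The values were taken as log2 intensities that the authors normalized, and RMA and Partek are listed in the submitters' processing notes without versions. No source states the base of the logarithm. It was read from the values, which run between 1.381 and 13.33. Per the labels' protocols, amplification used NuGEN's Applause WT-Amp Plus ST kit, and the label was biotin. Array medians were 5.778 to 5.84.

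Of 41345 probe sets, 23521 name 1 gene symbol. The brightest per gene was used, which gave 22180 genes with no filter on dim ones. The 4 groups each had a mean in a linear model (limma 3.58.1, R 4.3.3, eBayes with trend, 11 residual degrees of freedom), with 6 contrasts. Tests are two-sided, and a call needs p under 0.05 after Benjamini-Hochberg adjustment across the 22180 genes. Other settings are in the closing section. An array had high Alb if it lay more than 2 log2 units above the median of all arrays. P450 genes could all be named, and of each list up to 4 genes with the smallest p per contrast.

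The genes, lists and alternatives were chosen with earlier results of these data known. Promoters are the RefSeq windows of build GRCm38.p6, which list 69 of the 88 genes.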

Additional observations from a re-analysis of the deposited data

Results flagged for a closer look

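In each segment and diet group of 4 arrays, the highest or lowest array of each P450 gene was compared with the rest of its group. The arrays below stood apart from the other 3 by more than 0.829 of the group's range, the critical value of Dixon's test. Of the 264 gene groups tested 16 were past it. Chance alone gives about 1 in 20, so the count of 16 over the 3 groups together is near what chance gives. Most of the 16 lay in abdominal HPD arrays, chiefly array 4, and the pooled count does not describe that spread. Values of related genes on 1 array are also not independent.

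In abdominal HPD array 4, Cyp2a5 read 6.8 (3.27 to 3.81 in the others), Cyp2c54 read 7.1 (4.7 to 4.98), Cyp3a13 read 6.64 (4.06 to 4.34), Cyp3a16 read 4.85 (2.22 to 2.55) and Cyp2c69 read 3.82 (2.65 to 2.83). Alb in this array read 12.36, the highest of all arrays. Cyp2a5, Cyp2c54, Cyp3a13 and Cyp3a16 are among the 22 genes set apart by Alb. The high values of this array chose them, so their standing apart here is no further support. In the same array Cyp2b19 read 4.05 (4.28 in the others) and Cyp2c23 read 4.64 (4.6 in the others), where the 3 others were alike within rounding. Abdominal HPD array 1 was low in Cyp26c1, at 4.1 (4.49 to 4.53), array 2 was high in Cyp11b1, at 6.67 (4.77 to 5.04), and array 3 in Cyp2w1, at 5.89 (5.77 to 5.79).

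Abdominal SCD array 3 was low in Cyp17a1, at 4.42 (4.7 to 4.74). Thoracic SCD array 4 was high in Cyp2a5, at 4.08 (3.68 to 3.73). Thoracic SCD array 2 was low in Cyp2ab1, at 4.13 (4.75 to 4.8), in Cyp2j13, at 4.27 (4.79 to 4.9), and in Cyp4x1, at 5.53 (5.75 to 5.79), and array 3 in Cyp3a59, at 3.24 (3.61 to 3.68).

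P450 probe sets that name several genes, or a symbol ending in a further letter, stood outside the comparisons. There were 13 of them, and in 2 every abdominal HPD array lay above every abdominal SCD array, as in 4.12% of all genes. The probe set for Cyp4a12b differed by 0.26 (6.35 to 6.56 with HPD and 5.89 to 6.32 with SCD), and the one shared by Cyp4a32 and Cyp4a10 by 0.8 (3.70 to 4.89 with HPD and 3.28 to 3.47 with SCD).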

How the results depend on the processing

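The counts of P450 genes called were 6 for the abdominal diet change, 4 for the thoracic one, 7 for their average, 0 in their difference, and 2 (SCD) and 4 (HPD) between segments. With the adipocyte means as covariates they were 0, 0 and 0 between diets, 1 under SCD and 0 under HPD, and the segment difference of Cyp2d22 under HPD turned to -0.012. Without the 4 arrays with high Alb the thoracic count was 2, that between segments 1 under SCD and 7 under HPD. Without the 2 arrays with high Scgb1a1, an alternative added after seeing the data, the SCD count was 1. It ended 6 of 23 calls, those of Cyp2c68 and Cyp3a11 in the abdominal and Cyp4b1 in the thoracic diet change among them. The others were segment calls, of Cyp2d40 under SCD and of Cyp2d22 and Cyp2r1 under HPD. At an adjusted p under 0.1 the HPD count between segments was 8. Without the 5 arrays with a high T and NK cell mean, also added afterwards, the counts were 15 in the abdominal diet change, 14 in the average, 6 in the difference and 13 between segments under HPD, beside 0.618%, 4.64%, 0.194% and 2.1% of all genes, but this left abdominal HPD array 3, with high Alb, as the only array of its group. That lone array is assumed to vary like the other groups.

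Leaving out each array in turn gave 3 to 6 (abdominal), 3 to 4 (thoracic), 4 to 8 (average), 0 (difference), 1 to 2 (SCD) and 0 to 6 (HPD). The abdominal count was 3 without abdominal SCD array 1 or 2, and the average 4 without thoracic HPD array 3. The SCD count was 1 without abdominal SCD array 4 or thoracic SCD array 1, 2 or 3. The HPD count was 0 without thoracic HPD array 1, 1 without thoracic HPD array 3 and 2 without abdominal HPD array 4. The diet changes of Cyp1b1, Cyp2b10 and Cyp2d22 kept their calls whichever array was left out.

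With the replicate block the HPD count between segments was 2, with the calls of Cyp2d22 and Cyp2r1 lost, and the abdominal diet count 9. With only the compared groups in the model 4 of 16 calls were lost, those of Cyp2c68, Cyp3a11 and Cyp4b1 in the abdominal diet change and of Cyp2d40 under SCD. Deviations of same-numbered arrays of the 2 segments correlated at 0.031 to 0.122 under HPD and 0.03 to 0.069 under SCD. Arrays matched their own number best in 5 of 7 and 4 of 8 cases there. Between diets, where arrays cannot share an animal, correlations were -0.25 to 0.404 (abdominal) and 0.026 to 0.17 (thoracic), with 1 of 8 and 3 of 7 best matches. These values do not settle whether same-numbered segments came from 1 animal. The labels do not pair them, so the average and segment tests treat all arrays as separate. Over 23 gene results, 1 kept its call in all alternatives (Cyp2j9 under SCD) and 22 lost it at least once. Under a prior without trend, quantile normalization and, for the 20 that stayed, a filter on dim genes, none was lost. The alternative without arrays of high adrenal cortex markers was not run, since no array passed its limit. Detection calls were not used here, so signal over background is unknown.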
